A study of Mus musculus with 4 samples.

Results

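The 10 genes described here encode transcription factors and cofactors of the red cell and platelet lineages: Gata1, Gata2, Zfpm1, Tal1, Lyl1, Lmo2, Ldb1, Nfe2, Gfi1b and Bcl11a. They were taken from the count table by symbol, as single-locus rows that hold a member's name. Each gene had 1 row, so 10 of the 17956 single-locus rows are members, and all 10 passed the filter on low values that left 13764 loci for testing. The Bcl11a row is merged with the transcripts AK019630 and AK019722, whose reads cannot be told from those of Bcl11a.

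RNA was sequenced from bone-marrow cells of C57BL/6 mice that lack mature lineage markers and carry the Kit receptor (Lin-Kit+), a fraction of hematopoietic stem and progenitor cells. The knockout (KO) group is Asxl1-/- and holds 2 libraries, and the wild-type (WT) group holds 2. ASXL1 is a Polycomb-associated chromatin protein, and the study set expression against the binding of ASXL1 and of the cohesin complex. Each library came from 2000000 cells. The labels do not describe how the Asxl1 allele was made or the ages of the animals, and no label says that replicates were separate animals.

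GATA1 switches on the genes of red cells, megakaryocytes, eosinophils and mast cells, and GATA2 acts earlier, in stem cells and progenitors. During red cell formation GATA1 represses the Gata2 gene and takes over many of its binding sites, a step known as the GATA switch. GATA1 works with the cofactor FOG1, the product of Zfpm1, and in a complex in which LMO2 bridges the DNA-binding TAL1 or LYL1 to LDB1, which joins distant sites into loops. NF-E2, GFI1B and BCL11A act beside it at globin, platelet and progenitor genes.

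Values are normalised read counts, that is, reads per locus multiplied by the authors with 1 factor per library. The KO libraries held 83586916 and 76688583 reads recovered in this way, and the WT libraries 46597871 and 49764454. The members had between 1962 and 17537 reads in a library, so counting error lay between 0.755% (Ldb1, KO replicate 1) and 2.26% (Gata2, WT replicate 1) of a value. Asxl1 itself stood at 146 and 135 in the KO libraries, against 9742 and 9472 in the WT libraries. The Xist locus (merged with Tsix) was high in replicate 1 of each genotype, at 89290 in KO and 103006 in WT, and low in replicate 2, at 147 in KO and 2123 in WT. A locus that holds Ddx3y, a Y-linked gene, ran the other way, with 7947 in KO and 7385 in WT in replicate 2, and 3.79 in KO and 5.18 in WT in replicate 1. By these loci the libraries of a genotype did not come from the same animal, and WT replicate 2 held some Xist beside its high Ddx3y level. Differences are therefore also given within each replicate number, and sex and replicate number cannot be told apart.

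Of the 10 factors, Gata1, Gfi1b and Nfe2 rose in KO cells, by 20.8% to 33.5%, and none fell past the threshold. Gata2, Bcl11a and Lmo2 had lower values in both KO libraries than in both WT libraries without passing the test, and Tal1 and Lyl1 differed by less than the spread between libraries. The threshold is an adjusted p of 0.05 from limma with Benjamini-Hochberg adjustment over all 13764 loci, and fold changes are log2(value + 1) differences of KO over WT, with their standard errors. In this fit 20.9% of all loci were called, 11.9% higher and 8.97% lower, so 57% of calls were higher, a share that was 42.6% with upper-quartile and 38.9% with CPM scaling. A count of 3 higher members of 10 stands beside that 11.9%. For lower members the count was 0 in limma, in edgeR, in DESeq2 and in limma-voom, and 1, Gata2, in 4 of the 14 other settings tried. Gata2 was also the 1 member with a negative difference and an unadjusted p under 0.05 in the limma fit. The count of 3 depended on the WT libraries, and calls over all loci also became fewer when either WT library was left out. The log2 differences stayed positive in all 14 settings. They lay between 0.31 and 0.47 for Gata1, 0.21 and 0.30 for Nfe2, and 0.29 and 0.55 for Gfi1b. The members' median absolute log2 difference was 0.16, against 0.21 over all loci.

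**Figure D1:**
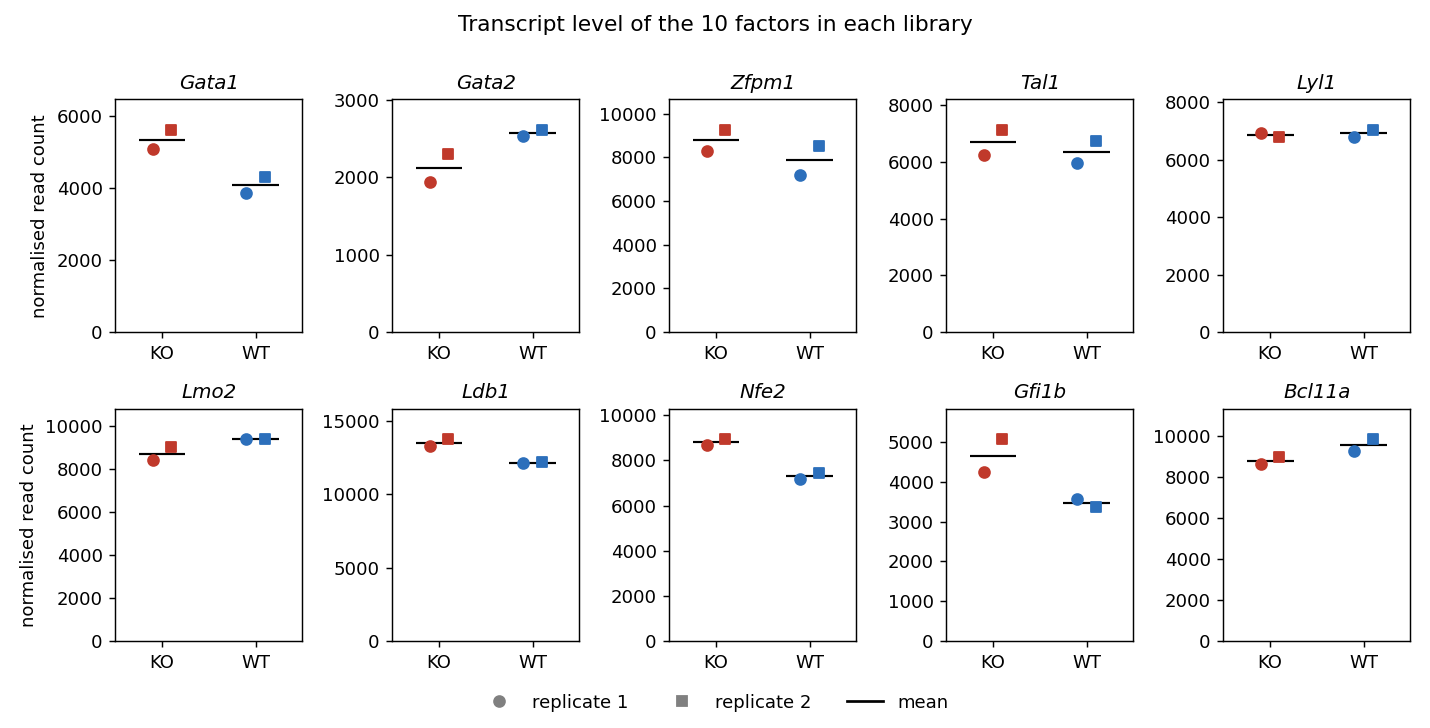
Normalised read count (vertical axes, from 0) of the 10 factors in the KO and WT libraries, with circles for replicate 1, squares for replicate 2 and a line for the mean of 2 libraries. Both KO libraries lie above both WT libraries for Gata1, Ldb1, Nfe2 and Gfi1b, and below them for Gata2, Lmo2 and Bcl11a.

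The KO and WT libraries did not overlap for 7 members, 4 of them higher and 3 lower in KO. Among all loci tested 66.1% did not overlap, 32.5% with KO higher and 33.6% with KO lower, so 7 of 10 is close to the background. Replicate 2 lay above replicate 1 in both genotypes for 7 members, against 28.4% of all loci: Gata1, Gata2, Zfpm1, Tal1, Ldb1, Nfe2 and Bcl11a. As these are bulk samples, more cells of a lineage and more RNA per cell cannot be told apart for any value here.

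Gata1, the main activator of red cell and megakaryocyte genes, lies on chromosome X at 7536385 to 7553700 (mm9). It had 5069.7 and 5609.5 normalised reads in the KO libraries, against 3854 and 4298 in the WT libraries. Both KO values exceeded both WT values, and replicate 2 was the higher one in each genotype. The means were 5339.6 ± 382 in KO and 4076 ± 314 in WT (SD, n = 2 each), a log2 fold change of 0.39 ± 0.08 (limma adjusted p = 0.0234). The difference was nearly equal within the replicate numbers, at 0.40 for replicate 1 and 0.38 for replicate 2. Without WT replicate 1 it was 0.31 and no longer passed (adjusted p = 0.129). It passed in the other 13 of 14 settings tried.

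Gata2, the GATA factor of stem cells, early progenitors and mast cells, lies on chromosome 6 at 88143884 to 88157026. It had 1935 and 2306 normalised reads in the KO libraries, against 2541 and 2615 in the WT libraries. The libraries did not overlap, and KO replicate 1 was the lowest. The log2 difference was -0.29 ± 0.10 with a 95% interval of -0.52 to -0.05, and the limma adjusted p was 0.0855. It was negative within both replicate numbers, at -0.39 for replicate 1 and -0.18 for replicate 2. The call turned on the setting: Gata2 passed as lower in 4 of the 14 settings. These were upper-quartile scaling (limma adjusted p = 0.0485), CPM scaling (0.0467), the replicate block and the fit without KO replicate 2. Gata2 did not pass in edgeR, DESeq2 or limma-voom.

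The sequence before a start site is shown for the 3 members with the largest absolute differences, Gata1 and Gata2 here and Gfi1b with its own values. RefSeq promoters (GRCm38.p6, a later build than the one the counts use) were matched for 8 of the 10 members, 12 start sites in all, with 250 bases before each. They were searched on both strands for GATA motifs (AGATAA or TGATAA), E-boxes (CAGATG, the palindrome CAGCTG, and the related CAGGTG) and the NF-E2 motif. Capitals mark a match, and neither Gata1 nor Gata2 has one in these windows.
Gata1, minus strand of chrX:7967911-7968160: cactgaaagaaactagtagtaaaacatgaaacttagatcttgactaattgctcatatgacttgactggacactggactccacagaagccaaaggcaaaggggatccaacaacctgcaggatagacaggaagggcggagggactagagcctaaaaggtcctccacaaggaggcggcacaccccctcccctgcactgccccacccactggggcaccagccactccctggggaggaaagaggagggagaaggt
Gata2, distal start site, plus strand of chr6:88193641-88193890: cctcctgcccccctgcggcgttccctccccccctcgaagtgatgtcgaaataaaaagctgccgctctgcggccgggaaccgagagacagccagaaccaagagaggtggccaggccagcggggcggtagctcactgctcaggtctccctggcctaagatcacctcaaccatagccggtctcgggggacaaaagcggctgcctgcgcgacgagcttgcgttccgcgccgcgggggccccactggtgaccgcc
Gata2, proximal start site, plus strand of chr6:88198414-88198663: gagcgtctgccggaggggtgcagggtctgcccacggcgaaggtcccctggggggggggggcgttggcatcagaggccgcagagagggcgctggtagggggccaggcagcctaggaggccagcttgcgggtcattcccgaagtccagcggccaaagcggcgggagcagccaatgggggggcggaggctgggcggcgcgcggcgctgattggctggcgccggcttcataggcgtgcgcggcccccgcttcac
A GATA motif was present before 3 of the 12 start sites (1 of Tal1, 1 of Ldb1 and that of Gfi1b), and in 16.6% of all 32851 RefSeq promoters of this length. An E-box was found before 1, that of Lyl1, against 38.1% of all promoters, and the NF-E2 motif before 0, against 0.247%. A match is only a run of letters, and a missing match says only that these letters are not in the window.

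Because both genes of a library share its depth and scaling, the ratio of Gata1 to Gata2 reads does not depend on how libraries were scaled. It was 2.62 and 2.43 in the KO libraries, against 1.52 and 1.64 in the WT libraries. Both KO libraries stood well above both WT libraries, and the replicates of a genotype lay close together. This order follows from Gata1 being higher and Gata2 lower in both KO libraries, so it is no separate result. On the log2 scale the ratio averaged 1.34 ± 0.08 in KO and 0.66 ± 0.08 in WT (SD, n = 2 each), a difference of 0.68, or 1.60-fold. With 2 libraries against 2, the exact two-sided permutation test cannot go below p = 0.333, which is the value obtained. This ratio compares the same gene pair between genotypes and is not a ratio of molecules, since reads were not divided by transcript length.

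**Figure D2:**
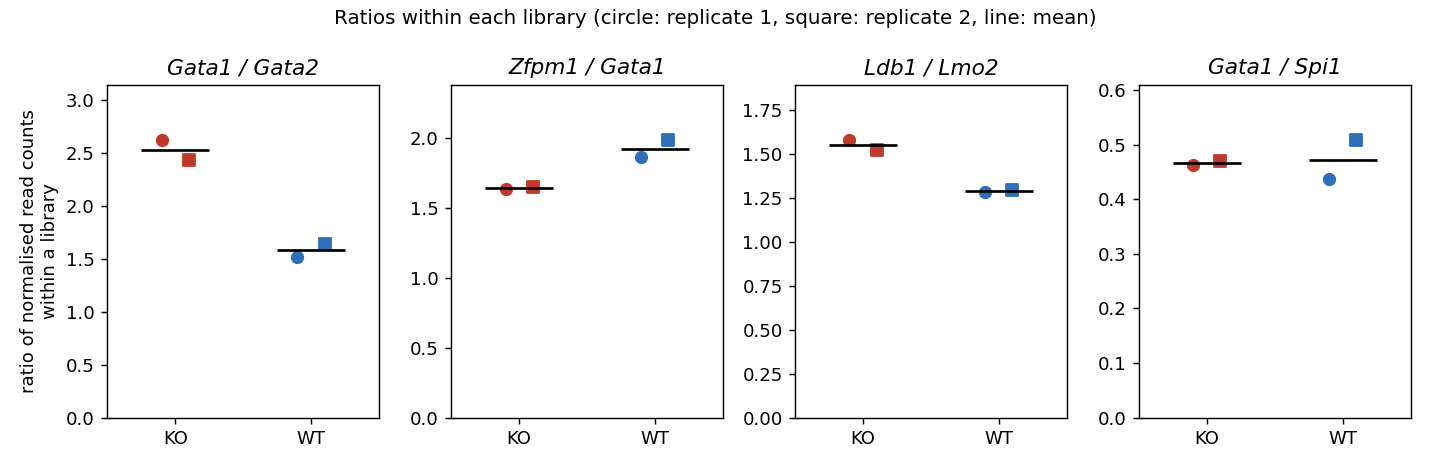
Ratios of normalised read counts within each library (vertical axes, from 0) for Gata1 over Gata2, Zfpm1 over Gata1, Ldb1 over Lmo2 and Gata1 over Spi1, with circles for replicate 1, squares for replicate 2 and a line for the mean. Gata1 over Gata2 lies at 2.62 and 2.43 in KO and at 1.52 and 1.64 in WT, whereas Gata1 over Spi1 overlaps between the genotypes.

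Zfpm1 encodes FOG1, the zinc finger protein that binds GATA1 and recruits repressor complexes, and lies on chromosome 8 at 124806040 to 124861147. It had 8288 and 9258 normalised reads in the KO libraries, against 7198 and 8535 in the WT libraries. The groups overlapped, because WT replicate 2 lay above KO replicate 1. The log2 difference of 0.16 ± 0.10 did not pass (limma adjusted p = 0.277), and its 95% interval of -0.07 to 0.40 includes the size found for Gata1. Relative to Gata1 in the same library, Zfpm1 was lower in KO, with a ratio of 1.635 and 1.65 in KO against 1.87 and 1.99 in WT. That ratio, like all others below, was chosen after values had been seen, and its exact permutation p was 0.333, the smallest possible.

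Tal1 encodes the basic helix-loop-helix factor that nucleates the complex at E-boxes, and lies on chromosome 4 at 114730415 to 114744360. Its normalised read count was 6256 and 7134 in the KO libraries, against 5979.6 and 6741 in the WT libraries. Replicate 2 exceeded replicate 1 in both genotypes by more than the genotypes differed. The log2 difference was 0.07 ± 0.09 (limma adjusted p = 0.582), with a 95% interval of -0.14 to 0.29.

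Lyl1, the close relative of Tal1 that can take its place in the complex, lies on chromosome 8 at 87225355 to 87228615. It had 6932 and 6771 normalised reads in KO, against 6796 and 7038 in WT. Among the members it had the smallest difference, -0.01 ± 0.05 on the log2 scale (limma adjusted p = 0.87), with a 95% interval of -0.14 to 0.11. A change of the size seen for Nfe2 lies outside that interval. In CPM both KO libraries lay below both WT libraries, so even the overlap of Lyl1 depends on the scaling. Tal1 over Lyl1 in a library also overlapped, at 0.903 and 1.05 in KO and 0.880 and 0.958 in WT.

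Lmo2, which encodes the LIM-only bridge between TAL1 and LDB1, lies on chromosome 2 at 103798151 to 103822035, 49.35 Mb from Asxl1. Its normalised read count was 8421 and 9028 in KO, against 9408 and 9389.9 in WT. The WT libraries were nearly equal and both lay above the KO libraries. The log2 difference of -0.11 ± 0.05 did not pass (limma adjusted p = 0.198, 95% interval -0.24 to 0.02), and it was negative in all 14 settings tried, with no call in any.

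Ldb1 encodes the dimerising partner through which distant complexes come together, and lies on chromosome 19 at 46107090 to 46119701. It had 13292 and 13759 normalised reads in KO, against 12108 and 12184 in WT. Both KO libraries were higher, by 0.15 ± 0.05 on the log2 scale with a 95% interval of 0.04 to 0.27 (limma adjusted p = 0.0607). The call lay at the threshold: Ldb1 passed in DESeq2 (adjusted p = 0.0288), in edgeR with RLE factors (0.0454) and without KO replicate 1 (0.0448). Ldb1 over Lmo2 was 1.58 and 1.52 in the KO libraries, against 1.29 and 1.30 in the WT libraries (exact permutation p = 0.333, the smallest possible). That KO lay above WT without overlap follows from Ldb1 being higher and Lmo2 lower in both KO libraries.

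Nfe2 encodes the p45 subunit of NF-E2, which pairs with a small Maf protein at globin and platelet genes, and lies on chromosome 15 at 103078648 to 103085847. Its normalised read count was 8699 and 8941 in the KO libraries, against 7180.2 and 7423 in the WT libraries. The libraries of a genotype were close and the genotypes did not overlap. Means were 8820.1 ± 171 in KO and 7301 ± 171 in WT (SD, n = 2 each), a log2 fold change of 0.27 ± 0.05, with the lowest adjusted p of the 10 factors (limma, 0.0162). The difference was 0.28 in replicate 1 and 0.27 in replicate 2. It no longer passed without WT replicate 1 (adjusted p = 0.126) or without WT replicate 2 (0.0786), and passed in the other 12 settings.

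Gfi1b, a repressor needed for red cell and platelet formation that recruits the demethylase LSD1, lies on chromosome 2 at 28464969 to 28477502, 124.7 Mb from Asxl1. Its normalised read count was 4235 and 5066 in the KO libraries, against 3576 and 3367 in the WT libraries. Its KO libraries differed more from each other than the WT libraries did, but both were higher. The means were 4651 ± 587 in KO and 3472 ± 147 in WT (SD, n = 2 each). At 0.42 ± 0.10 its log2 fold change was the largest of the 10 (limma adjusted p = 0.0305), with 0.24 in replicate 1 and 0.59 in replicate 2. Without WT replicate 1 and without WT replicate 2 the adjusted p was 0.094 and 0.134. The 250 bases before its RefSeq start site hold 1 GATA motif, TGATAA in capitals, which begins 120 bases before the start.
Gfi1b, minus strand of chr2:28621983-28622232: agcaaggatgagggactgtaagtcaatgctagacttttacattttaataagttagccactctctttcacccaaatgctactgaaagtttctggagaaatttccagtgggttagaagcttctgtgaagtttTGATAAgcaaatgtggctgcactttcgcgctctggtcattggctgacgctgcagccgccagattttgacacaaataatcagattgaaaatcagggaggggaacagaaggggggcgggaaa

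Bcl11a, known for silencing fetal and embryonic globin genes and for its need in B cell formation, lies with the merged transcripts AK019630 and AK019722 on chromosome 11 at 23978055 to 24073558. The merged locus had 8629.7 and 8959 normalised reads in KO, against 9245 and 9841 in WT. Both KO libraries were lower, by a log2 difference of -0.12 ± 0.05 that did not pass (limma adjusted p = 0.172, 95% interval -0.25 to 0.02). It was negative in all 14 settings and called in none. Gata1 over this locus was 0.588 and 0.626 in KO, against 0.417 and 0.437 in WT. The lack of overlap follows from Gata1 being higher and this locus lower in both KO libraries.

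**Figure D3:**
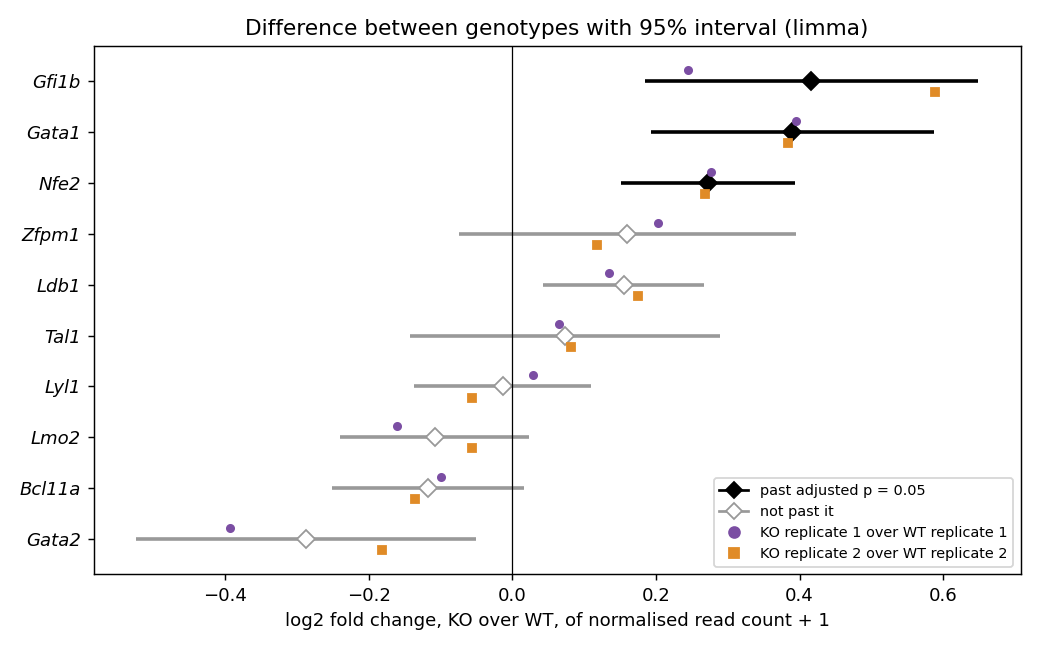
Log2 fold change of KO over WT (horizontal axis) for each factor, with its 95% interval from limma, filled where the adjusted p passed 0.05, and the difference within replicate 1 (circle) and within replicate 2 (square). Gfi1b, Gata1 and Nfe2 are filled, at 0.42, 0.39 and 0.27, and Gata2 lies lowest at -0.29 with an interval that ends at -0.05.

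Of the partners and antagonists of the factors, more loci rose than fell. A list of 49 partners and cofactors matched 48 loci, of which 12 rose and 3 fell (25% and 6.25%, against 11.9% and 8.97% of all loci), with a median log2 difference of 0.05 against -0.01 over all loci. The largest changes were in the small Maf gene Maff, a partner of NF-E2, with 423 and 349 normalised reads in KO against 137 and 143 in WT (log2 1.45 ± 0.18, limma adjusted p = 0.00517). Id1 and Id2, which encode inhibitors that keep E-proteins from DNA, rose by 0.72 ± 0.13 and 0.67 ± 0.17, and Bach1, a repressor that competes with NF-E2 for small Maf proteins, by 0.41 ± 0.06. Of these 4, only Maff passed both without WT replicate 1 and without WT replicate 2. The list held 3 higher loci without WT replicate 1 and 5 without WT replicate 2. When a WT library was dropped the list held 0 lower loci, whichever it was, and dropping KO replicate 1 or 2 gave 5 or 7.

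Among the closest partners, Spi1, listed as Sfpi1, encodes PU.1, the myeloid factor that antagonises GATA1. It had 10951 and 11924 normalised reads in KO, against 8819.8 and 8464 in WT. It rose by 0.40 ± 0.06 (limma adjusted p = 0.00873, and 0.0561 without WT replicate 2), about as much as Gata1. Gata1 over Spi1 therefore overlapped, at 0.463 and 0.470 in KO and 0.437 and 0.508 in WT (exact permutation p = 1). Fli1, an ETS factor of megakaryocytes, rose by 0.30 ± 0.05, with 6683 and 6677 normalised reads in KO against 5568 and 5298 in WT (adjusted p = 0.015, and 0.069 or 0.109 without WT replicate 1 or 2).

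The red cell activator Klf1 had 5820.1 and 6832 normalised reads in KO, against 4841 and 6044 in WT, and its difference of 0.22 ± 0.12 did not pass (limma adjusted p = 0.248). Of the small Maf genes that NF-E2 pairs with, Mafg rose by 0.30 ± 0.07 (adjusted p = 0.0395) and Mafk differed by 0.21 ± 0.07 without passing (0.0924). The call of Mafg was lost when any 1 library was left out, with adjusted p between 0.0525 and 0.241. The E-protein genes Tcf3 (-0.11 ± 0.06) and Tcf12 (0.03 ± 0.05), whose products bind DNA with TAL1 or LYL1, did not pass, nor did Runx1 (0.04 ± 0.10) or the ETO2 corepressor gene Cbfa2t3 (-0.19 ± 0.07). Runx1 and Tcf12 changed sign with upper-quartile or CPM scaling.

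Among erythroid genes that GATA1 and TAL1 bind or regulate, many rose and none fell. The list of 52 symbols matched 47 loci, of which 45 were tested, and 21 rose and 0 fell. That is 46.7% higher, against 11.9% of all loci, with a median log2 difference of 0.46 against -0.01 over all loci. At an unadjusted p under 0.05 the lower count was also 0, as it was in edgeR, DESeq2 and limma-voom. Tfrc, the transferrin receptor gene that supplies iron for haem, had 65735 and 72747 normalised reads in KO against 32018 and 32799 in WT, a log2 fold change of 1.09 ± 0.06. Alas2, the first enzyme of erythroid haem synthesis, reached 1360.5 and 1629.7 in KO, against 756 and 973 in WT, and Car1, a carbonic anhydrase gene, rose by 0.75 ± 0.07. The merged locus Sphk1+AK009121, which holds a sphingosine kinase gene, rose by 0.68 ± 0.06 (adjusted p = 0.00249). Without WT replicate 1 the list held 10 higher loci and Alas2 lost its call (adjusted p = 0.0777).

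Beside that list stood the markers of late erythroblasts, of which 7 loci were found and 1, Alas2, rose, while none fell and none was at 0. Their summed level was 22350 and 30430 in KO, against 13740 and 22900 in WT, so the groups overlapped and replicate 2 was the higher in each genotype. The globin locus Hba-a2 showed the same order, with 6238 and 8451 in KO against 4156 and 7684 in WT, and Beta-s had 5452 and 9467 in KO against 3003 and 5589.5 in WT. Neither globin locus passed (limma adjusted p = 0.405 and 0.148). The part of erythroblast content in the values of Gata1, Gfi1b and Nfe2 was not tested.

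Of 32 megakaryocyte and platelet loci tested, 9 rose and 3 fell (28.1% and 9.38%, against 11.9% and 8.97% of all loci), with a median of 0.38. The share that fell is near that of all loci. Thbs1, which encodes the platelet protein thrombospondin-1, had 42906 and 30383 normalised reads in KO against 3326 and 5243 in WT, a log2 fold change of 3.11 ± 0.24. Selp+F5+AK149537, a locus with the P-selectin gene of platelet granules, rose by 1.08 ± 0.06. Sept5+Cdcrel-1+Gp1bb, with a subunit gene of the von Willebrand factor receptor, rose by 1.03 ± 0.06, and Cnrip1+Plek, with the platelet signalling gene for pleckstrin, by 0.835 ± 0.07. In these merged loci, and in the others named here, the reads of the merged names cannot be told apart. Lat, Tbxas1 and the merged locus with Angpt1 were the 3 that fell, named here after their values were seen. Dropping WT replicate 1 left 5 higher loci and dropping KO replicate 2 gave 18. Lower loci numbered 1, 0 and 5 when WT replicate 1, WT replicate 2 or KO replicate 1 was dropped. Of 10 megakaryocyte markers 2 rose, Itga2b and Itgb3, and none was at 0. Their summed level was 10530 and 8993 in KO, against 6847 and 7207 in WT, without overlap, and its part in the values of Nfe2 and Gfi1b was not tested.

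Among mast cell, basophil and eosinophil genes that GATA factors regulate, 3 of 21 rose and 5 fell (14.3% and 23.8%, against 11.9% and 8.97% of all loci), with a median of 0.35. The share that rose is near that of all loci. The loci that fell were Prss34, Fcer1a, Ms4a2, Mcpt8 and Cpa3, the last 3 named after their values were seen. Other mast cell genes had positive differences that did not pass, with Tpsab1 at 2.61, Tpsb2 at 2.03, Cma1 at 0.71 and Hdc at 0.32, also named after their values were seen. Both tryptase genes, Tpsab1 and Tpsb2, are close copies and low, at 42.1 or less in every library. Prss34, a basophil protease gene, had 1216 and 1199 normalised reads in KO against 2918 and 2867 in WT (log2 -1.26 ± 0.07, limma adjusted p = 0.00117). Fcer1a, the alpha chain of the IgE receptor, had 28.04 and 24.8 in KO against 80.3 and 54.9 in WT (-1.30 ± 0.34, adjusted p = 0.0441), a call lost when any 1 library was left out (0.0577 to 0.241). The 3 loci that rose hold eosinophil genes: Epx by 0.78, named after its value was seen, the granule protein gene Prg2 by 1.14 ± 0.04 and Ear2+Ear3 by 1.30 ± 0.26, the last one lost without WT replicate 1 or 2 (adjusted p = 0.0815 and 0.0592). Dropping a WT library left 1 lower locus, whichever it was, and dropping KO replicate 1 left 3. The list held 9 higher loci when KO replicate 1 was dropped and 6 when KO replicate 2 was. Of the 8 mast cell and basophil markers those 5 fell, the other 3 (Tpsb2, Cma1 and Hdc) had positive differences that did not pass, and none was at 0. Their summed level overlapped, at 17730 and 15310 in KO and 17750 and 17520 in WT. Hdc was the largest part of that sum, at 11949 and 9150 in KO and 8337 and 8368 in WT. The sum therefore does not show the 5 markers that fell. The part of mast cell and basophil content in the value of Gata2 was not tested.

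Among stem-cell and early progenitor genes linked to GATA2, TAL1, LYL1 and LMO2, more fell than rose. Of 27 loci 11 fell and 3 rose (40.7% and 11.1%, against 8.97% and 11.9% of all loci), with a median of -0.35. The share that rose is near that of all loci. Mecom+AK145113, which holds a stem-cell transcription factor gene, had 87.9 and 101 normalised reads in KO against 242 and 255 in WT. Mycn, a growth regulator of progenitors, had 209.9 and 224 in KO against 633 and 496 in WT (log2 -1.37 ± 0.17, limma adjusted p = 0.00553). Ndn, a gene linked to stem-cell quiescence, had low values, with 16.7 and 15.7 in KO against 38.9 and 62.2 in WT, and lost its call when any 1 library was left out. The immediate-early gene Egr1 rose by 1.36 ± 0.04. Samd14, a GATA2 target gene named here after its value was seen, rose by 0.44 ± 0.06. The lower count was 5 without WT replicate 1 and 4 without WT replicate 2, and the call of Mecom+AK145113 sat at the threshold in both (adjusted p = 0.05 and 0.0521). Kit, the receptor used for sorting and a GATA2 target, shares its locus with AK047175 and did not pass, with 18483 and 18889 in KO against 17739 and 16149 in WT.

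**Figure D4:**
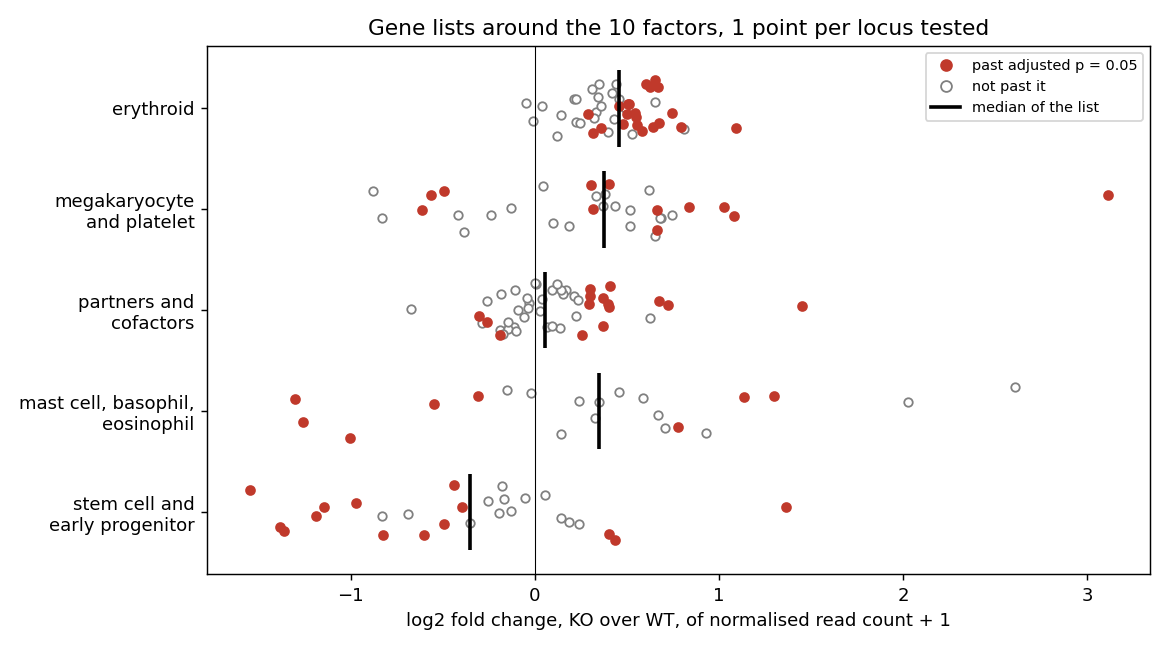
Log2 fold change of KO over WT (horizontal axis) for each locus tested in 5 gene lists, filled where the adjusted p passed 0.05, with a line at each list's median. The erythroid points lie almost entirely above 0 with a median of 0.46, the partner points centre on 0.05, and the stem-cell points have a median of -0.35.

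The other markers place the members in their sample. Over all loci 11.9% were called higher and 8.97% lower. Of 10 Lin-Kit+ progenitor markers 1 rose and 3 fell, and their summed level was 736100 and 641400 in KO, against 839500 and 781100 in WT. Most of that sum was Mpo, at 441863 and 370120 in KO and 525289 and 474770 in WT. Mature neutrophil markers, which the gate should remove, rose for 9 of 10, with sums of 2101000 and 1961000 in KO against 1044000 and 1164000 in WT. B cell markers fell for 3 of 8 (46550 and 33270 in KO, 61400 and 60900 in WT), monocyte markers rose for 2 of 10 and fell for 3, and 2 of 8 T and NK cell and 2 of 7 stroma and endothelium markers tested fell. No marker of any of these lists was at 0. The part of neutrophil content in the values of the members was not tested.

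By distance between log2 profiles over the 4 libraries, each centred on its mean, loci most like Gata1 among 8859 candidates included Ehd1, Chka, Ankrd9 and Camsap1l1, at distances of 0.0096 to 0.0391. Those most like Gata2 were Acot11+Fam151a, Aen, Ercc6l, Pex26 and Abcf2, at 0.0315 to 0.0373. The named loci were not alone in this likeness, which rests on only 4 libraries. Of the 8859 candidates, 64 lay within 0.1 of Gata1 and 116 within 0.1 of Gata2.

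The signs of 8 of the 10 factors held in every setting tried, and those of Tal1 and Lyl1 did not. Gata1, Nfe2, Gfi1b, Zfpm1 and Ldb1 were positive in all 14 other settings, and Gata2, Lmo2 and Bcl11a were negative in all 14. Tal1 and Lyl1, the 2 basic helix-loop-helix genes, were the members whose sign depended on a single library. Tal1 was -0.01 when WT replicate 1 was dropped and -0.02 when KO replicate 2 was. Lyl1 was 0.01 when WT replicate 2 was dropped and 0.003 when KO replicate 2 was, and none of these passed the threshold.

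**Figure D5:**
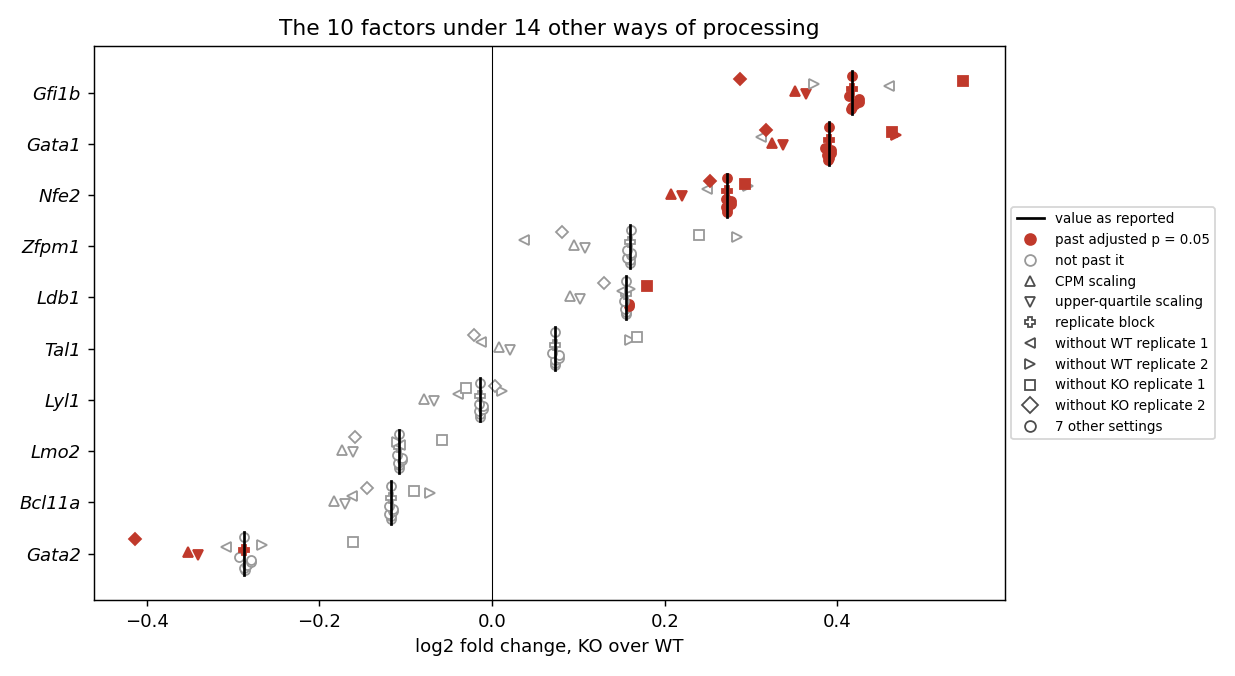
Log2 fold change of KO over WT (horizontal axis) of each factor under 14 other settings, filled where the adjusted p passed 0.05, with a vertical line at the value as reported and own marker shapes for upper-quartile and CPM scaling, the replicate block and each left-out library, and circles for the other 7 settings. Gata1 ranges from 0.31 to 0.47 and Gata2 from -0.41 to -0.16, whereas Tal1 and Lyl1 straddle 0.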

How the data were processed

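RNA-seq of 2 KO and 2 WT libraries was analysed. The aligner STAR 2.3.1t and the build mm9 are named in the submitters' processing notes. How reads were counted and scaled, with which annotation and strand setting, is not stated in the labels. The deposited values are a signal per locus, whole read counts under a library-wide factor: 100% of values were whole multiples of the library's smallest value above 0, within 0.001 of a read. Of 22849 rows, 4893 join neighbouring loci and were left out. The 3 joined rows that name a member held 3 reads in KO and 1 in WT.

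Single loci reaching 10 in 2 or more libraries were fitted with limma 3.58.1 (mean-variance trend, log2(value + 1), genotype only) in R 4.3.3. The fit was tested on simulated data with known changed loci: changed loci that were called had the right sign, but false calls made up a larger share than the threshold allows, so calls near the threshold are less certain than their adjusted p. The scale understates changes of low loci. P-values set a difference against the spread between libraries of a genotype, which limma draws towards the trend over all loci. Each genotype pairs a high-Xist with a high-Ddx3y library, so without the replicate block this spread also holds what goes with sex or replicate number. Alternatives used edgeR 4.0.16 (quasi-likelihood, TMM), which called 1619 loci higher and 1220 lower on the recovered reads, and DESeq2 1.42.0 (1929 and 1514), other scalings, pseudocounts and filters, a replicate block and left-out libraries. Members and lists were chosen with earlier results of these data known. Older symbols were matched through RefSeq names.

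From each list the up to 4 called loci with the largest change that hold no member were named, and 9 close partners whatever their values. Profile neighbours of Gata1 and Gata2 needed a mean of at least 100 and no clone, predicted or antigen receptor name. A locus that this rule names is not reported here.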

Additional observations from a re-analysis of the deposited data

How the results depend on the processing

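Over all loci 1640 were higher and 1235 lower, so 57% of calls were higher. Upper-quartile scaling gave 1901 lower loci and CPM scaling 2076, with 42.6% and 38.9% of calls higher. Leaving out 1 library gave 603 to 1714 higher and 266 to 1542 lower loci. Such a fit takes its spread from the intact pair and assumes that the lone library varies alike. Members called higher numbered 0 to 4 without 1 library, and members called lower 0 to 1. Gata2 was the 1 lower member with upper-quartile scaling, with CPM scaling, with the replicate block and without KO replicate 2.

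The replicate numbers are not stated to pair libraries, although deviations of same-numbered libraries correlated (0.246 across loci, which are not independent). Same-numbered libraries also shared the pattern of Xist and Ddx3y, so the block also takes out a difference that goes with sex. With the replicate block 1906 loci were higher and 1533 lower, the member counts were 3 higher and 1 lower, 5 megakaryocyte and platelet loci were lower, and 9 mast cell, basophil and eosinophil loci were higher.

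Lower partners and cofactors numbered 5 with DESeq2, 6 with upper-quartile scaling and 7 with CPM scaling, and higher mast cell, basophil and eosinophil loci 5 with DESeq2. Without 1 library the higher and lower counts ranged over 3 to 14 and 0 to 7 for partners and cofactors, 10 to 28 and none for erythroid genes, 5 to 18 and 0 to 5 for megakaryocyte and platelet genes, 2 to 9 and 1 to 5 for mast cell, basophil and eosinophil genes, and 2 to 4 and 4 to 12 for stem-cell and early progenitor genes.

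Runx1 changed sign to -0.013 with upper-quartile and -0.025 with CPM scaling, and Tcf12 to -0.026 and -0.038. Without 1 library Runx1 ranged from -0.0966 to 0.177, Tcf12 from -0.0188 to 0.0731, Tal1 from -0.0213 to 0.168 and Lyl1 from -0.0389 to 0.0118. The cause of these differences was not tested. The ratio of Gata1 to Gata2 moved by less than the spread between replicates with a pseudocount of 5 or with joined rows added. Without 1 library, an alternative chosen after seeing the data, its log2 difference was 0.62 to 0.73. Counting error of the members was 0.755% to 2.26% of a value, and the number of libraries, 2 a group, limits the precision.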
